A study of Sus scrofa with 10 samples.

Results

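The cytosolic ribosomal proteins are the protein parts of the ribosome that translates nuclear mRNAs. Their genes were taken from the hypothalamus table by name: RPL or RPS followed by a number, RPLP with a number, or RPSA, with an estimate in both groups. Of 25009 rows, 92 carried such a name, and they gave 75 names, each represented by its row of highest mean. Of these, 44 belong to the large and 31 to the small subunit. The hypothalamus is the brain region that steers appetite, growth and the pituitary. RNA came from 10 Iberian x Landrace backcross pigs, 5 of high growth and fatness (the high group) and 5 of low growth and fatness (the low group). Age, sex and treatment of the animals were not given in the sources used here. The table gives each row 1 FPKM in either group, with bounds below and above it. FPKM is a fragment count scaled for transcript length and library size. There are no values per animal in what was analysed here, so no test across animals was made, depth per sample is unknown, and every value below is the authors' group value.

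A ribosome holds 1 copy of nearly every ribosomal protein, the acidic stalk proteins being the exception, and cells make them in matched amounts. Their mRNAs are short, abundant and begin with a run of pyrimidines (a terminal oligopyrimidine, or TOP, sequence), through which nutrient and growth factor signals acting on the mTOR kinase set their translation. In the hypothalamus that kinase is known as a sensor of energy state. Mammalian genomes also hold many processed copies of these genes, which can share reads with the parent gene, and so single rows of this family are uncertain where the authors' counting could split reads.

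Of the 75 names, 70 reached a mean of 1 FPKM across the groups and were compared. All 70 were lower in the high group as deposited. The direction held for 69 after median-of-ratios scaling, where RPL15 turned, and for 53 after quantile normalization. The median member was at 275.8 FPKM in the high group, against 351.8 FPKM in the low group. The ratio of low to high had a median of 1.28 and ran from 1.06 in RPL15 to 1.51 in RPS16. On the log2(FPKM + 1) scale, on which differences of low genes are understated, the median difference (high minus low) was -0.36, against -0.10 over all 15281 rows compared. Of those rows, 67.7% were lower in the high group by any amount, and of the 652 rows at 100 FPKM or more, 87.7% were. A lower value in the high group was thus also the usual state of an abundant row as deposited. These shares are for the deposited values and are not given after scaling. The median of all rows compared was -0.005 after median-of-ratios scaling and -0.002 after quantile normalization.

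No single member stood apart by the deposited errors. RPS16 passed 1.5-fold and the other 69 did not, while 4.49% of all rows compared were at least 1.5-fold lower in the high group and 1.85% at least 1.5-fold higher. The bounds of the groups did not separate for any of the 70 members. Over all rows they separated for 0.432% with the lower value in the high group and for 0.0262% with the higher value there. The bounds lay a median of 28.9% of the value away in the high and 36.1% in the low group. The high value fell inside the low group's bounds in 70 of 70 members. The low value was above the upper bound of the high group in 35. Neither count is given over all rows here, so neither is read as particular to the members.

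**Figure D1:**
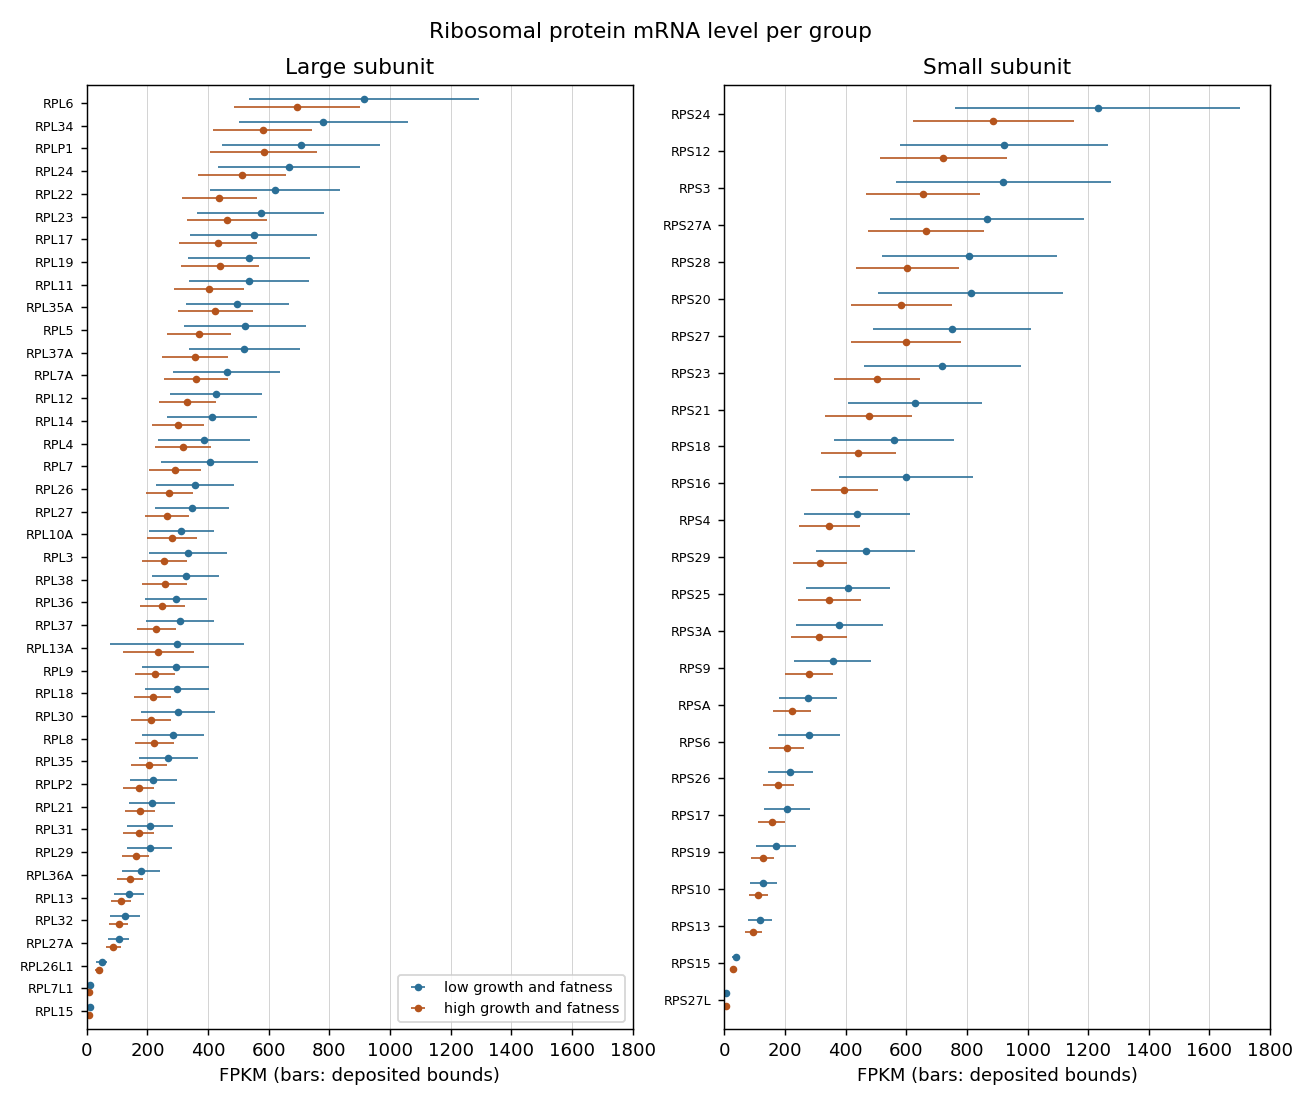
FPKM of 66 of the 70 compared members (x axis, linear) in the high (brown) and the low group (blue), by subunit and ordered by mean level. Points are the authors' group values and bars their deposited bounds, and every pair of bars overlaps. Every blue point lies to the right of its brown one as deposited. Over all 70 this direction held in 69 after median-of-ratios scaling and in 53 after quantile normalization. Of all rows compared, 67.7% were lower in the high group as deposited, a share not given after either scaling.

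The levels spanned a wide range although the proteins are needed in like amounts. RPS24, a small subunit protein mutated in some Diamond-Blackfan anaemia, was the highest, at 887.2 FPKM (bounds 621.6 and 1153) in the high and 1231 FPKM (761.4 and 1701) in the low group. RPS12 was at 722.3 and 922.1 FPKM, and RPL6 at 692.6 and 913.6 FPKM. RPS3, which lines the mRNA entry channel and also takes part in DNA repair, was at 656.2 FPKM in the high and 919.4 FPKM in the low group. Also among the 10 highest were RPS27A, RPS28, RPS20, RPL34 and RPS27, between 580.0 and 665.1 FPKM in the high and between 749.6 and 866.2 FPKM in the low group. The 10 highest members held 30.7% of the members' summed FPKM in the high and 31.2% in the low group. Neighbours in the order mostly did not differ beyond their bounds: of 69 pairs of neighbours, 67 overlapped in the high and 68 in the low group.

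At the other end, RPS27L was at 4.96 FPKM in the high and 6.34 FPKM in the low group. RPL15 was at 8.63 FPKM (0 to 17.3) and 9.18 FPKM (0 to 20.5), and its row shares its locus with an unnamed row at 100.7 and 117.9 FPKM. RPS15 was at 29.4 and 38.0 FPKM. Of the 70 members, 63 had a mean of at least 100 FPKM. The order of levels was nearly the same in the groups, with a Spearman rho of 0.994 across these genes, which are not independent replicates and share their libraries. The largest shift was 6 ranks, in RPS16 (rank 22 in the high and 16 in the low group) and in RPL30 (47 and 41).

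The differences kept to a narrow band. The ratio of low to high lay between 1.2 and 1.4 in 54 of 70 members (77.1%), limits that were chosen after the values were seen. The same band held 17.8% of all rows compared and 32.4% of the 586 rows of other genes at 100 FPKM or more. The interquartile width of the difference was 0.12 for the members, 0.30 for all rows and 0.31 for those 586 rows, whose median was -0.27. Those rows include 71 whose locus spans under 200 bases, and without them the width was 0.27. Other lists of related genes were about as narrow: the width was 0.10 for 26 ribosome assembly factors, 0.13 for 69 oxidative phosphorylation genes, 0.15 for 67 mitochondrial ribosomal proteins and 0.16 for 33 proteasome subunits. Among the 63 members at 100 FPKM or more the median was -0.36. No test of this width was made, because the genes share the same 2 group values and are not replicates of the condition.

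**Figure D2:**
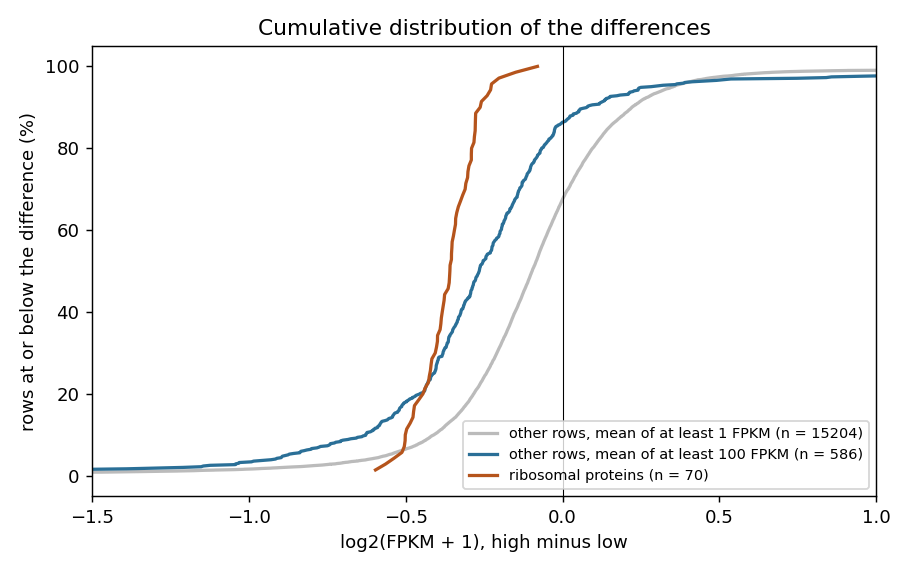
Cumulative share of rows (y axis, percent) by difference in log2(FPKM + 1), high minus low (x axis), for the 70 ribosomal proteins, other rows at 100 FPKM or more and other rows at 1 FPKM or more. The curve of the ribosomal proteins is the steepest of the 3, from -0.60 to -0.08, while the 586 abundant other rows spread around a median of -0.27.

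RPS16, a small subunit protein whose tail contacts the bound tRNA, had the largest difference. Its row (ENSSSCG00000020817, chromosome 6, 43871538 to 43874349, build Sscrofa10.2) was at 395.9 FPKM (285.4 to 506.3) in the high and 599.1 FPKM (376.9 to 821.2) in the low group, a difference of -0.60. A second RPS16 row on chromosome 14 (143655418 to 143658193) was at 70.4 and 70.8 FPKM, nearly equal. With both rows summed, RPS16 was at 466.3 and 669.9 FPKM, a ratio of 1.44, and no member passed 1.5-fold. Just below the limit stood RPS29, at 315.3 FPKM in the high and 466.7 FPKM in the low group (-0.56).

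Other large differences came from both subunits. RPL37A, in a row whose locus spans only 267 bases, was at 357.5 and 519.4 FPKM in the high and low group (-0.54). RPS23, which sits at the decoding centre, was at 503.7 and 718.8 FPKM (-0.51). RPL30 was at 211.3 and 300.2 FPKM (-0.50), and RPL22, a protein with a role in lymphocyte development, at 437.4 and 619.9 FPKM (-0.50). RPL5 was at 369.7 and 522.2 FPKM (-0.50). In all of these the groups' bounds overlapped.

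The smallest differences were also found in abundant members. RPL10A was at 281.1 FPKM (199.1 to 363.2) in the high and 311.9 FPKM (205.6 to 418.2) in the low group (-0.15). RPS10 was at 112.0 and 129.0 FPKM (-0.20), and RPL35A at 424.6 and 496.9 FPKM (-0.23). RPS25, which is used by some viral and cellular internal entry sites, was at 346.8 and 406.8 FPKM (-0.23). RPL36 was at 249.6 and 295.0 FPKM (-0.24), and RPL27A at 87.6 and 104.9 FPKM (-0.26). After quantile normalization RPL10A, RPS10, RPL35A, RPS25 and RPL36 were among the 17 members that were higher in the high group.

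The subunits had similar differences. The 42 large subunit members compared had a median difference of -0.35 and median levels of 256.5 FPKM in the high and 318.9 FPKM in the low group. The 28 small subunit members had a median of -0.37 and median levels of 331.0 and 422.6 FPKM. The difference between those medians was smaller than the spread within either subunit, whose SD over genes was 0.093 and 0.096. After quantile normalization 33 of 42 large and 20 of 28 small subunit members remained lower in the high group, with medians of -0.09 and -0.07. The median of all rows compared was then -0.002, and the share of all rows lower is not given.

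Among the functional groups, which were drawn up with results known, the acidic stalk recruits translation factors. RPLP1 was at 583.2 FPKM (406.6 to 759.7) in the high and 707.2 FPKM (446.1 to 968.3) in the low group. RPLP2 was at 171.6 and 219.6 FPKM. RPL5 and RPL11 bind the smallest ribosomal RNA and, when unassembled, hold back MDM2, the ligase that degrades p53. RPL11 was at 403.8 FPKM in the high and 535.4 FPKM in the low group, and with RPL5 the median difference was -0.45. After quantile normalization RPL5 and RPL11 were still lower (median -0.16), while RPLP1 was higher in the high group.

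RPL4, RPL17, RPL19, RPL26, RPL31 and RPL35 line the tunnel of the growing chain or its exit, and their median difference was -0.32. RPS3 and RPS9 at the mRNA entry channel had a median of -0.42. RPSA, a protein of the mRNA exit side also known as a laminin receptor, was at 222.5 and 274.7 FPKM. The 8 compared members linked to Diamond-Blackfan anaemia, a failure of red cell formation, had a median of -0.40. Among them RPS19, the gene most often mutated in that disease, was at 126.1 and 169.7 FPKM. After quantile normalization 4 of 6 tunnel members and 6 of 8 anaemia-linked members were lower. As the share of all rows lower is not given for that scaling, neither count is read as particular to these members.

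RPS6, the substrate of the S6 kinases downstream of mTOR, was at 205.3 FPKM (147.5 to 263.1) in the high and 278.5 FPKM (175.8 to 381.1) in the low group (-0.44). RPS27A, made as a fusion with ubiquitin, was at 665.1 and 866.2 FPKM (-0.38, and 0.06 after quantile normalization). RPL3, at the peptidyl transferase centre, was at 256.0 and 334.2 FPKM (-0.38). RPL7 was at 290.8 and 405.2 FPKM (-0.48) and RPL7A at 360.9 and 461.1 FPKM (-0.35). These genes are themselves among the compared members, and none of them had the largest or the smallest difference.

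Paralogs of core proteins were far lower than their parents on the same FPKM scale. RPL26 was at 272.5 and 356.9 FPKM and RPL26L1 at 41.1 and 50.1 FPKM, a ratio of 6.63 in the high and 7.13 in the low group. RPS27 was at 598.2 and 749.6 FPKM, 120.5 times RPS27L in the high and 118.3 times in the low group. RPL7 exceeded RPL7L1, a protein of ribosome assembly that was at 8.27 and 10.1 FPKM, by 35.2 and 40.0 times. The paralogs' differences, from -0.26 to -0.30, were inside the range of the core proteins. RPL10L, a retrogene known for its part in male meiosis, was at 0.427 FPKM (0.00623 to 0.847) in the high and 0.612 FPKM (0.0570 to 1.17) in the low group.

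Of the 5 names below 1 FPKM, RPL10L is a paralog and RPL28, RPS2, RPS7 and RPS4X carry names of core proteins. RPL28 was at 0.0604 and 0.0775 FPKM, RPS2 at 0.177 and 0.114 FPKM, and RPS7 at 0.0590 and 0.00359 FPKM in the high and low group. The row named RPS4X, on chromosome 15, was at 0.00995 FPKM in the high group and listed at 0 in the low group. A row named RPS4 on chromosome X (ENSSSCG00000012405), which the table of gene names gives as RPS4X, was at 346.7 FPKM (244.7 to 448.8) and 438.3 FPKM (263.3 to 613.3). The locus of each of the 5 rows spans at most 844 bases. Of 77 core proteins named RPL, RPS, RPLP or RPSA, 70 have a row; RPL10, RPL23A, RPL39, RPL41, RPLP0, RPS14 and RPS15A were not analysed here.

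For 14 names the table holds several rows, 31 in all. Of the 17 rows that were not used, 10 were below 1 FPKM, 3 of them listed at 0 in both groups. RPL36A had 3 rows of like level, at 143.3, 126.6 and 126.3 FPKM in the high group, against 179.0, 164.3 and 163.9 FPKM in the low group. RPS21 had a second row at 291.9 and 408.4 FPKM beside 476.1 and 629.4 FPKM. RPL31 had a second row at 27.4 and 29.9 FPKM beside 171.6 and 208.9 FPKM, and RPSA one at 9.52 and 12.9 FPKM. RPL35A had a second row at 3.37 and 5.04 FPKM. The other names with several rows were RPL5, RPL7, RPL12, RPL13A, RPLP1, RPS20, RPS24 and RPS26, and their summed rows had ratios of low to high from 1.21 in RPLP1 to 1.41 in RPL5. With the rows of each name summed, the median difference stayed at -0.36.

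Many of these genes host small nucleolar RNAs (snoRNAs), which guide the modification of ribosomal RNA, in their introns. Among the compared members, 18 share their locus with 33 snoRNA rows. Of these, 20 were listed at 0 in both groups, 5 were above 0 in both and 8 in 1 group. The highest of them by mean level, SNORD21 in the locus of RPL5, was at 71.0 FPKM (0 to 2086) in the high and 131.0 FPKM (0 to 5285) in the low group. With bounds this wide the rows give no direction, and no comparison with their host genes was made.

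The members together summed to 21927 FPKM in the high and 28678 FPKM in the low group, a ratio of 1.31, while all rows with an estimate had a ratio of 1.21. Their share of the summed FPKM was 5.44% in the high and 5.87% in the low group. Without the 27 rows of the mitochondrial genome it was 6.12% and 6.88%. Without rows whose locus spans under 200 bases it was 6.26% and 7.04%. The large subunit members summed to 11694 and 15107 FPKM and the small subunit members to 10233 and 13571 FPKM.

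The difference between the groups depended on level throughout the table. Rows from 1 to under 5 FPKM had a median difference of -0.04, rows from 5 to under 20 FPKM -0.10, rows from 20 to under 100 FPKM -0.18 and rows from 100 FPKM -0.29. Within these last 2 ranges the members had medians of -0.32 (4 members) and -0.36 (63 members). Across the members level and difference had a Spearman rho of -0.36, a description over 70 genes that share their libraries. Median-of-ratios scaling moved the median of all rows from -0.10 to -0.01 and that of the members to -0.25. Quantile normalization, which gives both groups the same distribution of values, left the members at -0.08. The members are part of that distribution, with 63 of the 652 rows at 100 FPKM or more, so it can also take up some of their own difference. What underlies the dependence on level was not tested.

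**Figure D3:**
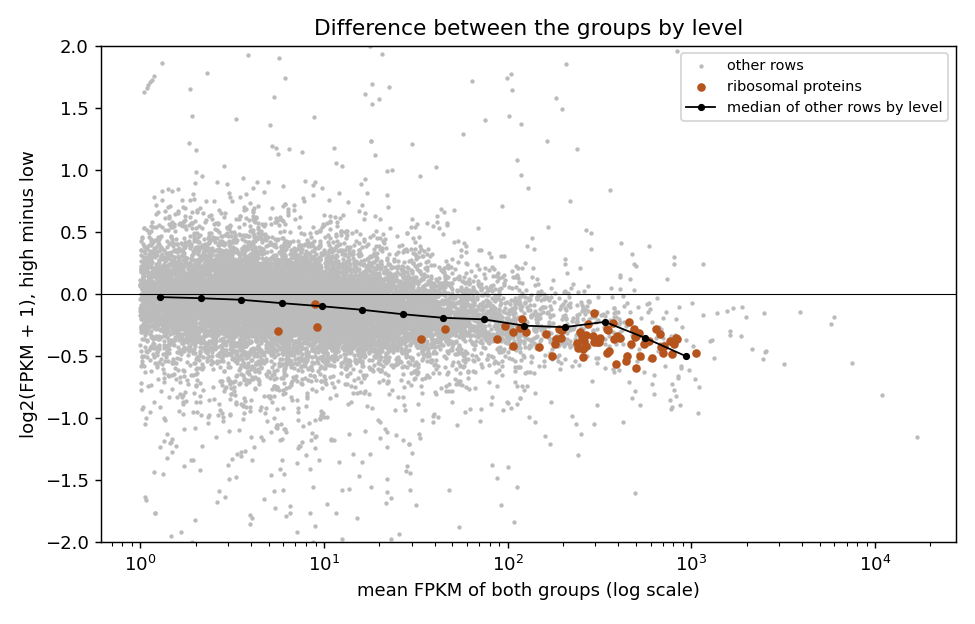
Difference in log2(FPKM + 1), high minus low (y axis), against mean FPKM of both groups (x axis, log scale) for the ribosomal proteins (brown) and other rows (grey), with the median of other rows by level (black). The median declines with level and the ribosomal proteins lie between -0.60 and -0.08; 175 other rows lie outside the y axis of -2 to 2.

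**Figure D4:**
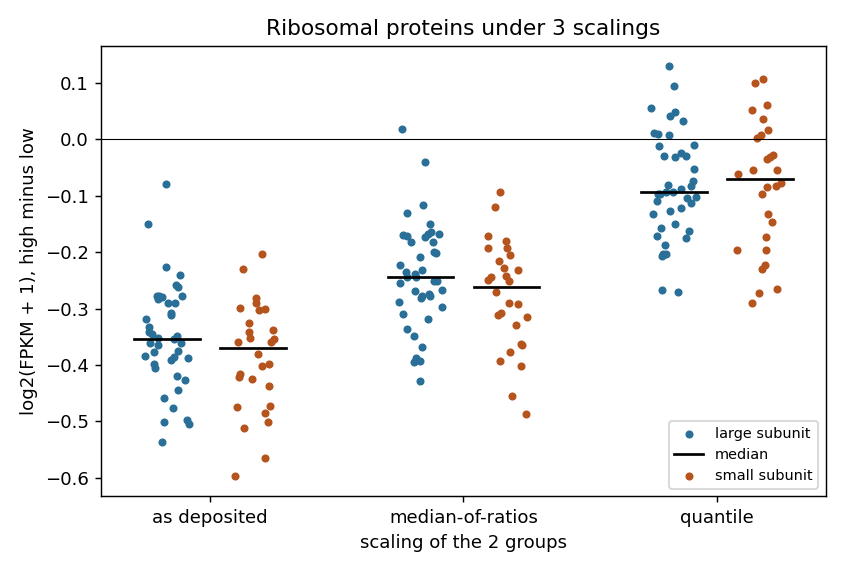
Difference in log2(FPKM + 1), high minus low, of each compared member (points; large subunit blue, small subunit brown) and the median of each subunit (bars), as deposited and after each scaling. All 70 are below 0 as deposited, 69 after median-of-ratios scaling and 53 after quantile normalization. The median of all rows compared was -0.10, -0.005 and -0.002 in the same order.

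Members in short and in long loci had like differences. The median was -0.34 for the 12 members whose locus spans under 2000 bases, -0.36 for 51 spanning 2000 to under 20000 and -0.36 for 7 spanning 20000 or more. Among other rows at 100 FPKM or more it was -0.58 in the 71 rows whose locus spans under 200 bases, a class that holds no member and whose bounds lay a median of 162.3% of the value away in the high group. It was -0.29, -0.28 and -0.19 in loci of 200 to under 2000, 2000 to under 20000 and 20000 bases or more. Locus span includes introns and is not the transcript length.

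Ribosome proteins whose genes carry other names were measured as well. FAU, whose product is cut to give a small subunit protein, was at 426.5 FPKM (306.5 to 546.6) in the high and 595.1 FPKM (380.0 to 810.1) in the low group, a difference of -0.48 that was -0.37 after median-of-ratios scaling and -0.16 after quantile normalization. GNB2L1, the scaffold protein also called RACK1, was at 206.4 and 240.3 FPKM, a difference of -0.22 that was -0.11 and 0.01 after these scalings. Neither passed 1.5-fold.

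Of 14 other genes with TOP transcripts that had a row, 13 were compared, with means from 6.17 to 403.5 FPKM. As deposited 13 of 13 were lower in the high group, with a median of -0.36, the same value as in the ribosomal proteins. Among all rows at 100 FPKM or more 87.7% were lower, with a median of -0.29. The match is thus not read as particular to TOP transcripts. After median-of-ratios scaling 12 of 13 TOP genes were lower (median -0.25), and after quantile normalization 11 of 13 (-0.13). The medians of all rows compared were then -0.005 and -0.002, and their shares lower are not given. EEF2, the elongation factor that moves the ribosome along the mRNA, was at 369.8 and 437.2 FPKM. VIM, an intermediate filament of glia and mesenchymal cells, was at 223.4 and 315.6 FPKM. EEF1G and EEF1B2, subunits of the complex that recharges elongation factor 1, were at 222.9 and 301.6 FPKM and at 204.8 and 262.8 FPKM. The row named EEF1A1 was at 0.0406 and 0.0319 FPKM, and a row named EEF1A, chosen after its values were seen, at 1822 and 2478 FPKM.

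The genes that build ribosomes had smaller median differences than the ribosomal proteins as deposited, but most of them were also at far lower levels. Rows from 5 to under 20 FPKM had a median of -0.10 over the whole table, and rows from 100 FPKM one of -0.29. Of 26 assembly factors, 24 were lower and 2 higher in the high group, with a median of -0.17 and none past 1.5-fold. Of 13 genes of RNA polymerase I and its factors, which make ribosomal RNA, 8 were lower and 5 higher, with a median of -0.08. Of 11 regulators of ribosomal protein translation and supply, 8 were lower and 3 higher, with a median of -0.16. Among them LARP1, which binds TOP mRNAs, was at 28.6 and 26.9 FPKM, RPS6KB1, an S6 kinase, at 7.08 and 6.97 FPKM, and MYC at 4.45 and 5.56 FPKM, all chosen after their values were seen. After quantile normalization the medians were -0.07 for the assembly factors, 0.01 for RNA polymerase I and -0.08 for the regulators, beside -0.08 for the ribosomal proteins. The difference between the lists was not tested.

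Mitochondrial ribosomal proteins, which are encoded in the nucleus but translate mitochondrial mRNAs, had a median of -0.24, with 66 of 67 lower in the high group and 1 past 1.5-fold. Oxidative phosphorylation genes had a median of -0.28 (67 of 69 lower), and proteasome subunits one of -0.22 (31 of 33 lower). After quantile normalization these lists had 60 of 67, 52 of 69 and 19 of 33 lower, with medians of -0.11, -0.08 and -0.05. The median was then -0.08 for the cytosolic ribosomal proteins and -0.002 for all rows compared, whose share lower is not given.

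**Figure D5:**
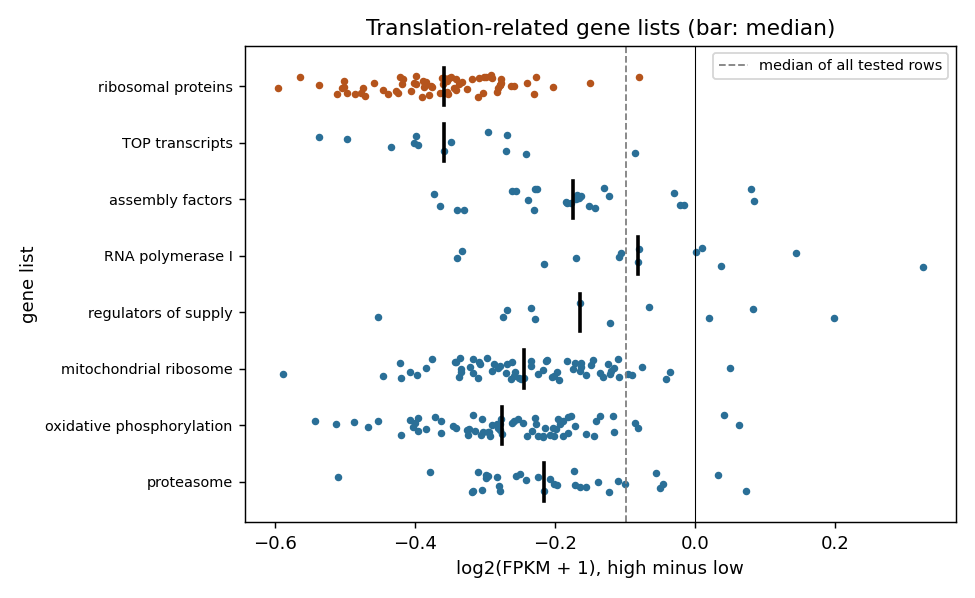
Difference in log2(FPKM + 1), high minus low (x axis), of the ribosomal proteins and of 7 gene lists (y axis), as deposited. Points are genes, bars medians and the dashed line the median of all rows compared (-0.10); the ribosomal proteins (-0.36) and TOP transcripts (-0.36) lie to the left of the assembly factors (-0.17) and RNA polymerase I (-0.08). After quantile normalization 17 of the 70 ribosomal proteins are above 0, and the medians become -0.08, -0.13, -0.07 and 0.01 in the order just given. The lists differ in level, and the median of all rows from 100 FPKM was -0.29 as deposited.

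Bulk tissue mixes cell types, and fewer cells of a type cannot be told apart from less RNA per cell. The tissue label was met by AVP, at 472.2 and 354.3 FPKM in the high and low group, and PMCH, at 167.1 and 91.8 FPKM. Of 15 compared hypothalamic neuron markers, 10 were higher in the high group and 5 lower. The lower ones included POMC (84.0 and 110.4 FPKM) and NPY (7.25 and 11.9 FPKM). Sums here and below are over all markers of a list with a row, and for the 17 of this list they were 1097 and 821.5 FPKM. General neuron markers summed to 1926 and 2036 FPKM (6 of 8 lower in the high group) and astrocyte markers to 2758 and 3457 FPKM (6 of 7). Oligodendrocyte markers were lower in 7 of 7 (2800 and 4346 FPKM) and microglia markers in 8 of 8 (284.1 and 407.0 FPKM). Fibroblast and meningeal markers were lower in 8 of 8 (68.6 and 207.1 FPKM), blood markers in 4 of 4 (160.7 and 392.9 FPKM) and anterior pituitary markers in 5 of 5 (459.7 and 983.4 FPKM). Choroid plexus markers were lower in 4 of 5 (318.4 and 475.4 FPKM), endothelial markers in 4 of 4 (29.9 and 36.9 FPKM) and ependymal markers in 1 of 4 (18.8 and 17.4 FPKM). After quantile normalization 2 of 8 general neuron and 4 of 7 astrocyte markers were lower, while the oligodendrocyte, microglia, fibroblast, blood and pituitary counts were as before. The share of all rows lower is not given for that scaling. No marker with a row in these lists was listed at 0 in both groups; GFAP had no estimate. The part of these cell types in the lower ribosomal protein values of the high group was not tested.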

How the data were processed

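Per the file headers, the deposited values are FPKM, 1 for each gene and group, with bounds and a status flag. How animals were combined and the confidence level of the bounds were not given in the sources used here. Per the labels' protocols, total RNA was extracted with a RiboPure kit and paired-end TruSeq libraries were run on a HiSeq 2000. Cufflinks 2.0.2, TopHat2 2.0.5 and Bowtie2 are listed in the submitters' processing notes, with Trim Galore, FastQC, CASAVA and the build Sscrofa10.2. Of 25009 rows, 24951 had an estimate in both groups and 15281 a mean of at least 1 FPKM. Differences are log2(FPKM + 1), high minus low, computed with pandas 2.3.3 and numpy 2.4.6. A member was counted past 1.5-fold on that scale, or as separate where the deposited bounds did not overlap. The script was tested on simulated data. The planned limma fit needed values per animal and was not run.

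The members and lists were chosen with earlier results of these data known. Named were the 10 highest and 10 lowest members, the 8 largest differences in each direction, members past 1.5-fold, a set of paralogs and well-known members, names with several rows, and the 4 highest genes of 2 lists; others are said to be chosen later. Alternatives were 2 scalings, filters, pseudocounts, folds, summed rows and member sets. Positions count from 1. No sequence was used. A few genes that this rule takes are not reported here by name; they stay in the counts and medians.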

Additional observations from a re-analysis of the deposited data

How the results depend on the processing

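The number of members past 1.5-fold, 1 as reported, was 0 after median-of-ratios scaling and 0 after quantile normalization. It was 0 with the rows of a name summed, 0 without names of several rows and 0 at a fold of 2. At the lower fold tried, which was under 1.5, it was 47. The share of all rows past that lower fold is not given here, so the 47 is not read as particular to the members. The median difference of -0.36 became -0.25 with median-of-ratios scaling and -0.083 with quantile normalization. For the large subunit it went from -0.35 to -0.24 and -0.093, and for the small subunit from -0.37 to -0.26 and -0.070. The cause was not tested. Filters of 5, 20 and 100 FPKM, no filter, pseudocounts of 0.1 and 0.5, and leaving out paralogs, names of several rows or unplaced sequences kept the median between -0.36 and -0.35. The filter of 100 FPKM, the shares without mitochondrial or short rows and the count of lower members were added after the data were seen. The bounds of no member separated under any alternative that kept bounds. Without a filter, 72 of 75 names were lower in the high group. The names this adds were below 1 FPKM with overlapping bounds and give no direction. The median of all rows was then -0.01, and the share of all rows lower is not given here. No paired analysis was possible because the table holds 1 value per group, and for the same reason no animal could be left out. That value also limits the precision. The deposited bounds lay about 28.9% and 36.1% of a member's level away in the high and low group. By these bounds the difference of no single member was resolved, not even that of RPS16 with its ratio of 1.51.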
